A study of Homo sapiens with 6 samples.

Results

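The 10 genes TUBA1A, TUBA1B, TUBA1C, TUBB, TUBB2A, TUBB2B, TUBB3, TUBB4A, TUBB4B and TUBB6 encode the α- and β-tubulin isotypes described here. They were taken by gene name from the deposited expression table and make up 10 of its 15897 genes. The rule uses no measured value, but the members were chosen with earlier results of these data known. The table comes from RNA-seq of cells labelled H1650, an established human lung adenocarcinoma cell line, with 3 control libraries labelled wild type and 3 libraries labelled shSETD2, in which a short hairpin RNA was directed against SETD2. SETD2 is the methyltransferase that trimethylates lysine 36 of histone H3, and it also methylates α-tubulin in mitotic microtubules. Neither the labels nor the methods say whether the 3 shSETD2 libraries carried 1 hairpin or several, or whether libraries came from separate cultures, so p-values measure only the spread between these libraries. Expression is given as FPKM, the fragments of a gene scaled to its length and to the mapped fragments of the library. This puts genes and libraries on 1 scale. Differences between libraries can still depend on the scaling, and near-identical sequence limits comparison between some isotypes, as described below.

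Microtubules are polymers of a dimer of 1 α- and 1 β-tubulin, and human cells draw each from a family of genes. The isotypes share a nearly constant body and differ most in a short glutamate-rich tail at the carboxy terminus, which carries glutamylation, glycylation and the removal and return of tyrosine. Some isotypes are used in almost every cell (TUBB, TUBA1B, TUBB4B), whereas TUBB3, TUBB2B and TUBB4A are best known from neurons and brain. Cells also adjust tubulin mRNA to the amount of free dimer, through TTC5, which reads the first residues of nascent tubulin on the ribosome.

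Those first residues are encoded by the sequences below, which are shown because TTC5 reads what they encode. Each line gives the first 30 coding bases in GRCh37, with the first 4 codons in capitals. The 3 α members were identical over these 30 bases, and the 7 β members had 5 different versions of the first 12 bases. These 5 versions all encode methionine, arginine, glutamate and isoleucine, so they differ in bases and not in residues.
TUBA1B: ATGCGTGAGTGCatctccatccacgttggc
TUBB: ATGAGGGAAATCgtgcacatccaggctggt
TUBB2B: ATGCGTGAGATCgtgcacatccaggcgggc
TUBB3: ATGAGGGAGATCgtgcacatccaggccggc

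The other end of the coding sequence is where the isotypes part, and it is shown for the 7 β members because the tails it encodes are known to be the most variable stretch. Each line gives the last 60 coding bases before the stop codon, in exon 4 of 4 of the canonical transcript in GRCh37, with codons for glutamate in capitals.
TUBB (chr6:30692112-30692171, plus strand): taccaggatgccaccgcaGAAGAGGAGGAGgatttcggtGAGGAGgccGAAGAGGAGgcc
TUBB2A (chr6:3154100-3154159, minus strand): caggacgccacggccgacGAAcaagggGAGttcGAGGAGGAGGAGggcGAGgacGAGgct
TUBB2B (chr6:3224988-3225047, minus strand): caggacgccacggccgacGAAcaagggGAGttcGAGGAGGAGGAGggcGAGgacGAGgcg
TUBB3 (chr16:90002150-90002209, plus strand): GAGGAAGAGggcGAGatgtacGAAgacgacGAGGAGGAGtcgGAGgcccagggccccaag
TUBB4A (chr19:6495178-6495237, minus strand): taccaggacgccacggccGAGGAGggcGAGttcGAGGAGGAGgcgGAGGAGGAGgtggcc
TUBB4B (chr9:140137946-140138005, plus strand): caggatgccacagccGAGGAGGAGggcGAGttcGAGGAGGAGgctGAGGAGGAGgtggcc
TUBB6 (chr18:12326067-12326126, plus strand): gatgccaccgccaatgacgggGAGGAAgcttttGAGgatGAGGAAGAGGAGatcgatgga

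Of these 20 codons, TUBB4B had the most glutamate codons among the β members with 10, and TUBB6 had the fewest with 7. TUBB2A and TUBB2B differed at 1 of the 60 bases, and TUBB4A and TUBB4B at 12. Compared position by position, TUBB3 differed from TUBB at 35 bases and TUBB6 at 33, more than any other β member did. Over the whole coding sequence the 3 α members were between 95.9% and 97.2% identical, and the 7 β members between 80.9% and 98.2%, with TUBB2A and TUBB2B at the top of that range. An α and a β member were at most 55.8% identical.

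The SETD2 transcript itself was at 18.0, 10.2 and 17.6 FPKM in the controls, in order of library number, and reached 8.97, 8.09 and 12.2 FPKM in the shSETD2 libraries. The groups overlapped, since control library 2 was below shSETD2 library 3. The log2 fold change was -0.58 (SE 0.24, n = 3 per group) and did not pass the test, with a limma adjusted p of 0.0641. Leaving out control library 2 gave -0.83 (adjusted p = 6.48e-03) and leaving out shSETD2 library 3 gave -0.73 (adjusted p = 0.0418), whereas the other 4 libraries left out in turn gave -0.53 to -0.45 (adjusted p between 0.149 and 0.179). Median ratio scaling gave -0.25 (adjusted p = 0.377).

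The 2 groups of libraries stood far apart as a whole. Pearson's r of log2(FPKM + 1) across genes, which are not independent replicates, was between 0.982 and 0.990 within a group and between 0.701 and 0.707 between groups. Of 14068 genes tested, 26.8% were higher and 51.8% lower in shSETD2 libraries, and 80.9% had groups that did not overlap. Over all genes tested, the log2 fold change had a median of -0.29 on the FPKM as deposited and -0.01 after median ratio scaling, so that 34.1% of the calls were higher in the first case and 49.6% in the second. Of 10 markers of lung epithelium, 2 were listed, NKX2-1 (1.44 to 1.80 FPKM in control libraries, listed at 0 in every shSETD2 library) and LAMP3 (at most 1.27 FPKM in any library), so lung epithelium was not recognised by its markers in either group. The other lung markers were not analysed here. Of 10 neuron markers, 5 were listed, and their summed FPKM was between 66.6 and 72.1 in control libraries and between 2.59 and 2.73 in shSETD2 libraries. In the shSETD2 libraries NEFL, NEFM, INA and GAP43 were listed at 0 in every library. SYP, the other listed marker, went the other way, from between 1.82 and 2.56 FPKM in control to between 2.59 and 2.73 FPKM in shSETD2 libraries. Of the 10 neuron markers, 4 had a mean of 1 FPKM or more in control libraries and 1 in shSETD2 libraries, so neuron was not recognised in either group. Of 8 markers of renal epithelium, 6 were listed, and 2 had a mean of 1 FPKM or more in control libraries and 5 in shSETD2 libraries. By the rule used here (50% or more of a list at that level), renal epithelium was recognised in shSETD2 libraries only. PAX8 was at most 0.0368 FPKM in control libraries and between 28.1 and 35.2 FPKM in shSETD2 libraries, and PAX2 was between 0.578 and 0.911 FPKM in control libraries and between 9.49 and 10.5 FPKM in shSETD2 libraries, whereas EMX2 was between 1.67 and 2.55 FPKM in control libraries and listed at 0 in every shSETD2 library. For 8 listed markers of epithelium, the sums were between 14.2 and 16.2 FPKM in control libraries and between 402.1 and 454.5 FPKM in shSETD2 libraries, nearly all of it KRT7, KRT8 and KRT18, with CDH1 and EPCAM under 1 FPKM in the latter. With 3 of 10 markers at a mean of 1 FPKM or more in each group, this list was recognised in neither. Of 10 markers of mesenchyme, 9 were listed, and 8 had a mean of 1 FPKM or more in control libraries and 4 in shSETD2 libraries. The list was thus recognised in control libraries only, while the summed FPKM went from between 108.6 and 124.0 to between 170.5 and 180.8, most of it VIM. Any difference between the cultures other than the hairpin cannot be told apart from the effect of SETD2 depletion.

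All 10 tubulin genes passed the filter on low values. In shSETD2 libraries TUBB3, TUBB4B, TUBB6, TUBA1C and TUBA1B were higher, TUBB2B, TUBB4A, TUBB2A and TUBB were lower, and TUBA1A did not pass the test (limma on log2(FPKM + 1), adjusted p under 0.05 over all genes). The 5 higher genes are 5 of 10 against a background of 26.8%, the 4 lower genes are 4 of 10 against 51.8%, and the 9 members whose groups did not overlap stand beside 80.9% of all genes. Changes of this kind were common in these libraries. TUBB3, the neuronal class III β-tubulin, rose 12.2-fold and TUBB2B fell 11.0-fold. As everywhere in bulk RNA, fewer cells with a transcript and less of it per cell cannot be told apart.

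**Figure D1:**
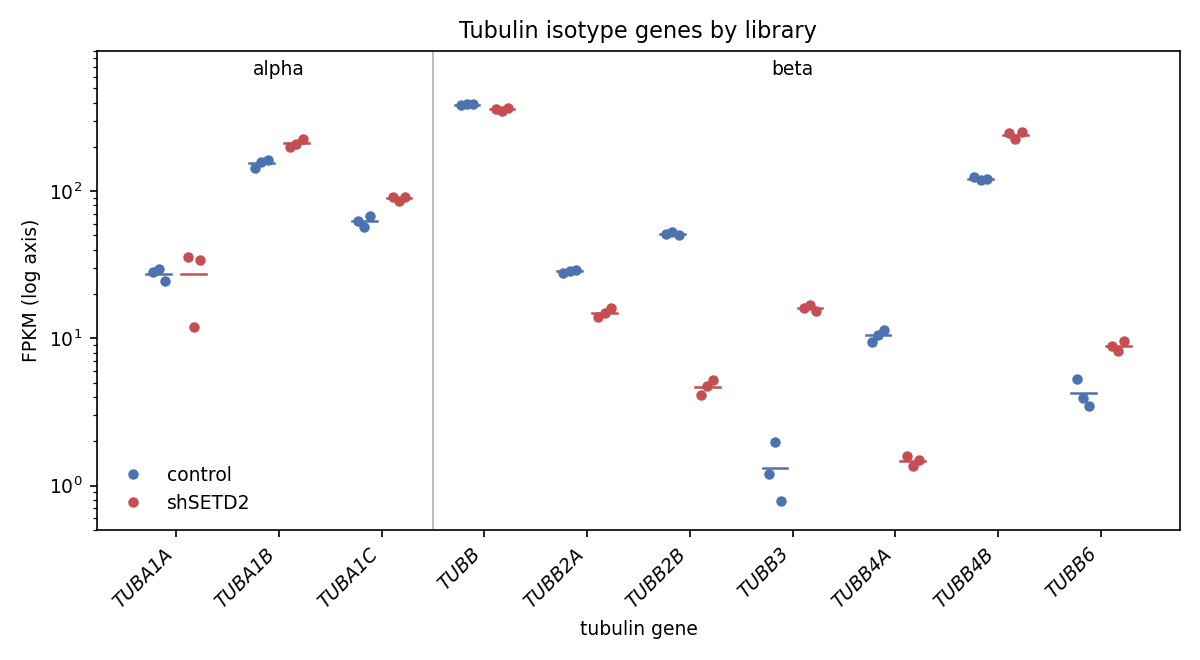
FPKM (log axis) of the 10 tubulin genes, with a point for each of the 3 control (blue) and 3 shSETD2 (red) libraries and a bar at the group mean. TUBB3, TUBB2B and TUBB4A show the widest gaps between groups, and the lone low TUBA1A point is shSETD2 library 2 at 11.97 FPKM.

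TUBB, the β isotype of most dividing cells, had the highest FPKM of the 10 genes in every library. It was at 382.5, 388.3 and 393.3 FPKM in control libraries and 363.8, 351.5 and 365.6 FPKM in shSETD2 libraries, and ranked 34th of all listed genes by its control mean and 37th by its shSETD2 mean. The shSETD2 values were all lower, by little. The log2 fold change was -0.11 (SE 0.028, limma adjusted p = 0.0111). That direction depends on the scaling, as TUBB stood 0.18 above the median gene on the log2 scale, gave 0.25 (adjusted p = 3.93e-04) after median ratio scaling and gave -0.08 (adjusted p = 0.0885) after quantile normalization.

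TUBB4B, the other widely used β isotype and a main tubulin of cilia, was at 124.3, 118.8 and 120.4 FPKM in control libraries and 248.4, 225.6 and 251.8 FPKM in shSETD2 libraries. Every shSETD2 library was well above every control library. The means were 121.2 ± 2.80 and 241.9 ± 14.2 FPKM (SD, n = 3), a 2.00-fold rise with a log2 fold change of 0.99 (SE 0.049, limma adjusted p = 3.96e-06). TUBB4B thereby moved from a rank of 140 among all listed genes to 66. In absolute terms it gained more FPKM than any other of the 10 genes, while TUBB, its most abundant relative, moved little.

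TUBB3 was at 1.19, 1.99 and 0.784 FPKM in control libraries, the lowest of the 10 genes there, and at 16.0, 16.9 and 15.3 FPKM in shSETD2 libraries. The groups did not come near each other. The control mean of 1.32 ± 0.610 FPKM and shSETD2 mean of 16.1 ± 0.795 FPKM (SD, n = 3) gave a log2 fold change of 2.91 (SE 0.18, limma adjusted p = 1.14e-05), with 2.74 to 3.70 over 16 alternative settings. TUBB3 passed from rank 11877 to rank 2247 of the listed genes. TUBB6, a β isotype of low abundance in most tissues, was at 5.31, 3.94 and 3.46 FPKM in control libraries and 8.94, 8.27 and 9.61 FPKM in shSETD2 libraries. It rose 2.11-fold without overlap between the groups (log2 fold change 0.94, SE 0.13, limma adjusted p = 6.83e-04). The difference between the rises of TUBB3 and TUBB6 was not tested.

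TUBB2B, a β isotype of developing neurons, was at 51.0, 52.9 and 50.3 FPKM in control libraries and 4.11, 4.72 and 5.24 FPKM in shSETD2 libraries. It was the fifth most abundant of the 10 genes in controls and the ninth in shSETD2 libraries. It fell the furthest of the 10 genes (log2 fold change -3.21, SE 0.078, limma adjusted p = 1.87e-07). TUBB2A, its close copy on chromosome 6, was at 27.9, 28.5 and 29.1 FPKM in control libraries and 13.9, 15.0 and 16.0 FPKM in shSETD2 libraries. TUBB2A fell as well (log2 fold change -0.89, SE 0.058, limma adjusted p = 1.42e-05), again with no overlap.

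TUBB4A, the β isotype of brain and myelinating cells, was at 9.44, 10.5 and 11.5 FPKM in control libraries and 1.58, 1.36 and 1.49 FPKM in shSETD2 libraries. All 3 shSETD2 values were far under the lowest control value. The fall was 7.08-fold in FPKM, its log2 fold change being -2.21 (SE 0.080, limma adjusted p = 1.02e-06), and it made TUBB4A the least abundant of the 10 genes in shSETD2 libraries. TUBB2B and TUBB4A were thus lower where the summed neuron markers were lower, and TUBB3, counted with the neuronal isotypes as well, was higher there. The part of cell identity in these changes was not tested.

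TUBA1B, the α isotype of most dividing cells, was at 144.7, 157.7 and 162.1 FPKM in control libraries and 201.1, 210.4 and 227.6 FPKM in shSETD2 libraries. TUBA1C, also widely used, was at 62.4, 56.9 and 67.6 FPKM in control libraries and 91.7, 85.9 and 91.5 FPKM in shSETD2 libraries. In neither gene did the groups overlap, and both rose. The log2 fold change was 0.46 for TUBA1B (SE 0.062, limma adjusted p = 5.22e-04) and 0.52 for TUBA1C (SE 0.068, limma adjusted p = 4.19e-04).

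TUBA1A, the α isotype most used in postmitotic neurons, was at 28.4, 29.6 and 24.4 FPKM in control libraries and 35.8, 11.97 and 33.9 FPKM in shSETD2 libraries. In shSETD2 libraries 1 and 3 it was above all controls, and in library 2 it was below all of them. The SD was 2.70 FPKM in controls and 13.3 FPKM in shSETD2 libraries, and the log2 fold change of -0.15 had a 95% confidence interval from -1.12 to 0.81 (limma adjusted p = 0.740). Leaving out shSETD2 library 2 gave 0.34 (adjusted p = 0.0184), the only alternative in which TUBA1A passed the test. Median ratio scaling with all libraries kept gave 0.19 (adjusted p = 0.685), so the direction also depends on the scaling. The TUBA1A value of shSETD2 library 2 was 0.343 times the mean of libraries 1 and 3. Of 1430 genes whose highest shSETD2 value was between 20 and 60 FPKM, 4 had a ratio that low or lower, TUBA1A among them, and the median ratio was 0.985. This ratio was looked at after the TUBA1A values were seen.

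**Figure D2:**
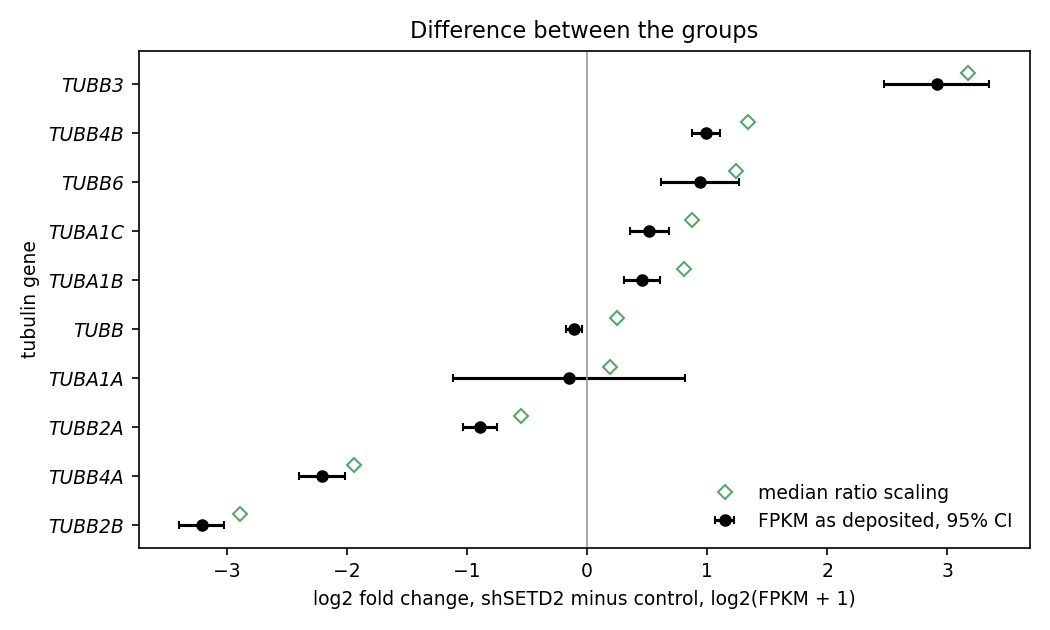
Log2 fold change of each tubulin gene, shSETD2 minus control, on log2(FPKM + 1), with black points for the FPKM as deposited with 95% confidence intervals (n = 3 per group) and green diamonds for the FPKM after median ratio scaling. The diamonds lie to the right of the points, and TUBB and TUBA1A cross 0.

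The order of the genes by FPKM changed with these shifts. In control libraries it ran TUBB, TUBA1B, TUBB4B, TUBA1C, TUBB2B, TUBB2A, TUBA1A, TUBB4A, TUBB6 and TUBB3, and only the neighbours TUBB2A and TUBA1A had overlapping ranges. In shSETD2 libraries it ran TUBB, TUBB4B, TUBA1B, TUBA1C, TUBA1A, TUBB3, TUBB2A, TUBB6, TUBB2B and TUBB4A, where the ranges of TUBB4B and TUBA1B overlapped, as did those of TUBA1A with TUBB3 and of TUBB3 with TUBB2A. The spread of levels stayed wide in both groups, with the most abundant gene at 388.0 and the least abundant at 1.32 FPKM on average in controls, against 360.3 and 1.48 FPKM in shSETD2 libraries.

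Summed over the 3 α members, expression was 235.5, 244.2 and 254.2 FPKM in control libraries and 328.6, 308.3 and 353.1 FPKM in shSETD2 libraries. Summed over the 7 β members, it was 601.7, 604.9 and 608.8 FPKM in control libraries and 656.7, 623.4 and 665.2 FPKM in shSETD2 libraries. In both sums every shSETD2 library was above every control library, 1.35-fold for α and 1.07-fold for β by the means. The exact two-sided permutation test gave p = 0.1 for each, which is the smallest p that 3 against 3 libraries can give. After median ratio scaling the differences between group means, 85.3 FPKM for α and 43.3 FPKM for β as deposited, became 157.1 and 198.5 FPKM.

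The ratio of summed β to summed α FPKM, which does not depend on the scaling of a library, was 2.55, 2.48 and 2.39 in control libraries and 2.00, 2.02 and 1.88 in shSETD2 libraries (exact permutation p = 0.1, the smallest possible). The 10 genes together held 0.383% ± 0.00601 of all listed FPKM in control libraries and 0.443% ± 0.0147 in shSETD2 libraries (SD, n = 3). In summed FPKM the total was 849.7 ± 12.9 in control libraries and 978.4 ± 43.7 in shSETD2 libraries (SD, n = 3), a ratio of 1.15.

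Shares of the summed FPKM of the 10 genes show the make-up of the tubulin transcripts in each library. TUBB made up 45.7%, 45.7% and 45.6% in control libraries and 36.9%, 37.7% and 35.9% in shSETD2 libraries. TUBB4B made up 14.8%, 14.0% and 13.9% in control libraries and 25.2%, 24.2% and 24.7% in shSETD2 libraries. These were the largest shifts in share, 8.81 percentage points down and 10.5 up, and in neither gene did the groups overlap.

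Among the α genes, TUBA1B went from 18.2% ± 0.810 to 21.8% ± 1.196 of the total and TUBA1C from 7.33% ± 0.576 to 9.17% ± 0.161 (SD, n = 3). TUBB2B went from 6.05% to 0.479%, TUBB2A from 3.35% to 1.53% and TUBB4A from 1.23% to 0.151%, while TUBB3 went from 0.156% to 1.65% and TUBB6 from 0.4996% to 0.913%. The isotypes best known from the nervous system among the β genes, TUBB2A, TUBB2B, TUBB3 and TUBB4A, together made up 10.8% ± 0.228 in control libraries and 3.81% ± 0.238 in shSETD2 libraries. The exact permutation test gave p = 0.1 (0.111 after Benjamini-Hochberg adjustment over 10 genes) for every share but that of TUBA1A, and the design allows no smaller p. TUBA1A had a share of 2.83% to 3.48% in control libraries and 1.29% to 3.64% in shSETD2 libraries (exact p = 0.8).

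**Figure D3:**
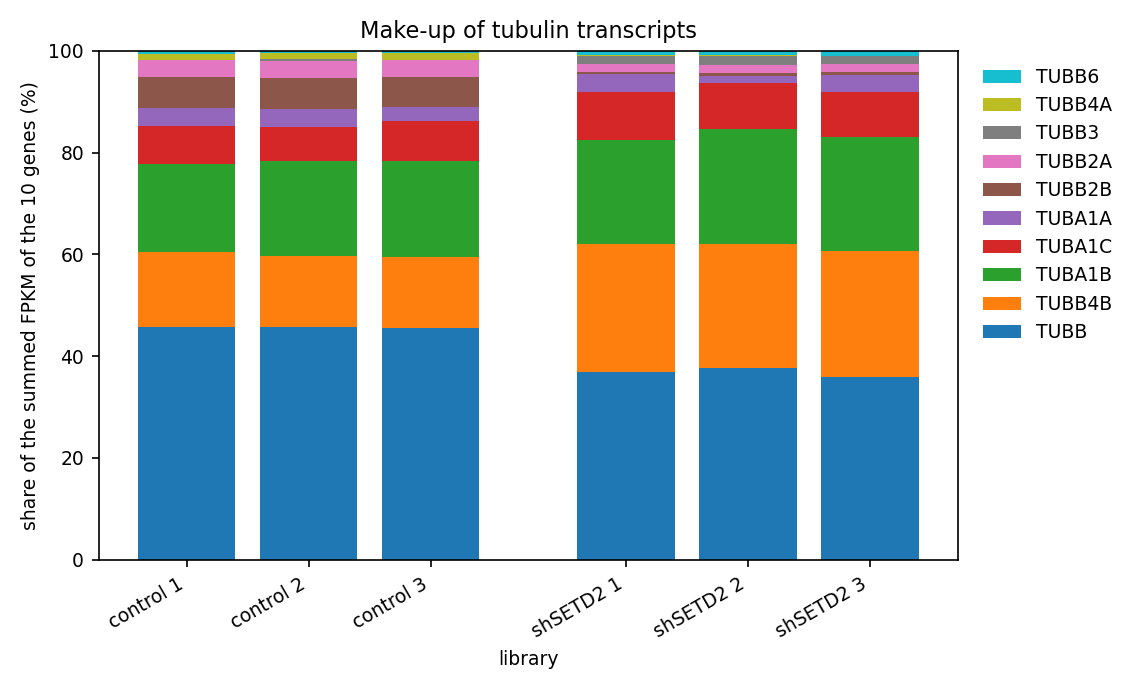
Stacked shares (percent of the summed FPKM of the 10 tubulin genes) in each of the 6 libraries, 1 bar per library and 1 colour per gene. TUBB (bottom, blue) shrinks from about 45.7% to 36.9% and TUBB4B (orange) widens from 14.3% to 24.7%, while the brown band of TUBB2B nearly disappears.

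Within the α genes alone the make-up did not separate the groups. TUBA1B made up 61.4% to 64.6% of α FPKM in control libraries and 61.2% to 68.3% in shSETD2 libraries, TUBA1C 23.3% to 26.6% and 25.9% to 27.9%, and TUBA1A 9.61% to 12.1% and 3.88% to 10.9%. Within the β genes alone, all 7 shares kept the groups apart. By FPKM, 80.9% of all genes tested did so. Shares of 1 sum are not separate observations, because a rise of 1 share lowers others. There TUBB went from 64.1% to 55.6% of β FPKM, TUBB4B from 20.02% to 37.3% and TUBB2B from 8.49% to 0.723% by the means.

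Near-identical sequence limits how surely reads were given to single isotypes. Of all windows of 50 bases in its canonical transcript, TUBB2A shared 59.5% with another of the 10 genes, all of them with TUBB2B, and it shared 53.7% of windows of 100 bases. For TUBA1B and TUBA1A, 56.6% and 50.5% of 50-base windows were shared with other members, and for TUBA1C 26.7%. TUBA1B-AS1, which overlaps TUBA1B and TUBA1A in the annotation, shared 68.7% of the 50-base windows of TUBA1B and 29.0% of those of TUBA1A, either strand counted. TUBB shared none with another member (17.1% with the copy TUBBP1), TUBB3 shared 9.17%, TUBB4B 6.80%, TUBB4A 6.73% and TUBB6 1.09%. Splits between TUBB2A and TUBB2B, and among the 3 α genes, are therefore uncertain. The sum of TUBB2A and TUBB2B, which depends less on that split, though not wholly free of it because FPKM divides by the length of each gene, was 78.9, 81.4 and 79.4 FPKM in control libraries and 18.0, 19.7 and 21.3 FPKM in shSETD2 libraries, a 4.07-fold fall with no overlap (exact permutation p = 0.1, the smallest possible).

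Some tubulin genes also share their place in the genome with others. TUBA1A (chr12:49578579-49583107 in the table, minus strand) and TUBA1C (chr12:49582519-49668386, plus strand) overlap by 589 bases at their starts. TUBB2B (chr6:3224495-3231964, minus strand) overlaps 328 bases of PSMG4, which fell as well (log2 fold change -1.14, limma adjusted p = 5.84e-06). TUBB6 (chr18:12307668-12344319, plus strand) overlaps 15377 bases of AFG3L2, which fell (-0.37, adjusted p = 3.95e-04) where TUBB6 rose. Over all genes tested the median was -0.29 and 51.8% were lower, so a fall of the size of that of AFG3L2 was common. The exons of the canonical transcripts did not overlap in any of these 3 pairs, while exons of other transcripts did. The library kit is labelled as stranded, but how strand was used in counting is not given in the sources used here.

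TUBB3 (chr16:89987800-90005169, plus strand) begins 415 bases after the end of MC1R, the melanocortin receptor gene. MC1R was at 2.18, 1.66 and 2.03 FPKM in control libraries and 1.42, 1.73 and 1.28 FPKM in shSETD2 libraries, with overlapping groups, so it did not share the rise of TUBB3 (log2 fold change -0.26, limma adjusted p = 0.0518). The annotation holds a further gene without a symbol across this place that shares 92.8% of the 50-base windows of TUBB3, and that gene was not analysed here. TUBB lies between MDC1 and FLOT1, 2312 and 2283 bases away on the opposite strand. Those fell by 1.03 and 0.15 on the log2 scale (limma adjusted p = 3.75e-06 and 0.0309). BPHL, 91 bases from TUBB2A, fell by 0.61 (adjusted p = 6.47e-03). The median of all genes tested was -0.29, and 51.8% were lower.

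In the promoters of the 10 canonical transcripts, taken from RefSeq (GRCh38.p14, 250 bases before to 50 after the start, all 10 matched by symbol), a CCAAT box (CCAAT on either strand) was found in 7, a GC box (GGGCGG on either strand) in 8 and a TATA box (TATAAA on either strand) in 1, TUBB2A. These letters occur in 34.6%, 44.9% and 11.5% of 35093 promoters of that length. None of these motifs contains another. TUBB3, which rose, and TUBB2B, which fell, both held a CCAAT box and at least 1 GC box.

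The genes with the levels most like those of TUBB3 over the 6 libraries, by Euclidean distance of log2(FPKM + 1), were TSPAN14 (distance 0.58), EHBP1L1 (0.59) and TICAM1 (0.60). For TUBB2B they were AMOT (0.33), CA2 (0.62) and SOX4 (0.66). AMOT was at 49.4, 49.0 and 47.8 FPKM in control libraries and 5.02, 5.37 and 4.88 FPKM in shSETD2 libraries, nearly the values of TUBB2B. The likeness is a description of 6 libraries that fall into 2 groups.

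Beyond the 10 genes, 97 listed genes of the tubulin and microtubule machinery were set beside them in 10 hand-written lists. Of 95 tested, 23 were higher, 54 lower and 18 neither, and 81 had groups that did not overlap. All genes tested gave 26.8% higher and 51.8% lower with a median of -0.29, and 80.9% had groups that did not overlap. The counts of the whole set thus stayed near the background. After median ratio scaling 34 were higher and 38 lower. Of all 14068 genes tested, 5305 were higher and 5394 lower after that scaling.

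Of the other α- and β-tubulins, 2 of 8 were listed and the remaining 6 were not analysed here. TUBA4A, an α isotype whose gene does not encode the final tyrosine, was at 1.46, 1.23 and 1.25 FPKM in control libraries and 18.0, 13.3 and 14.9 FPKM in shSETD2 libraries. It rose 11.7-fold (log2 fold change 2.82, SE 0.11, limma adjusted p = 1.51e-06), and so was close to TUBB3 in both groups. TUBA8 was between 0.551 and 0.674 FPKM in control libraries and at most 0.0732 FPKM in shSETD2 libraries and was not tested because of its low mean. Adding both genes to the sum left the 10 shares close to those above, with TUBB4B at 14.2% and 24.3%.

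Of the 4 listed γ-, δ- and ε-tubulins, which serve centrosomes and centrioles, 3 fell and 1 did not pass the test. The median log2 fold change of the 4 was -0.65. For comparison, 26.8% of all genes tested were higher and 51.8% lower, with a median of -0.29. After median ratio scaling 2 of the 4 were lower and 1 higher, beside 5394 and 5305 of all 14068 genes. TUBG1, the main γ-tubulin that nucleates microtubules, was between 58.8 and 63.5 FPKM in control libraries and between 46.3 and 50.5 FPKM in shSETD2 libraries (log2 fold change -0.32, limma adjusted p = 9.41e-04). TUBD1 and TUBE1, the δ- and ε-tubulins of centrioles, fell by 0.98 and 1.18 on the log2 scale (adjusted p = 7.94e-05 and 5.77e-06). TUBG2, the second γ-tubulin, had overlapping groups (6.61 to 8.16 and 7.37 to 8.07 FPKM, adjusted p = 0.387). In the γ-tubulin ring complex, the template for new microtubules, 7 of 9 genes fell and 2 rose, with a median of -0.69. The median of all genes was -0.29. After median ratio scaling 6 of the 9 were lower and 2 higher, beside 5394 and 5305 of all 14068 genes. MZT1, a small subunit of the complex, fell from 42.6 ± 1.22 to 11.9 ± 2.42 FPKM (SD, n = 3), TUBGCP3 fell by 0.85 and MZT2A by 0.77, while NEDD1, which brings the complex to centrosome and spindle, rose by 0.19 (limma adjusted p = 0.0122) and TUBGCP2 by 0.15 (adjusted p = 0.0410).

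Folding of α- and β-tubulin needs prefoldin, the chaperonin CCT and the tubulin cofactors. Of 21 genes, 5 rose, 13 fell and 3 did neither, and their median log2 fold change of -0.29 was that of all genes. Among all genes tested, 26.8% were higher and 51.8% lower. CCT5, a subunit of the chaperonin ring, was at 53.0, 47.4 and 52.5 FPKM in control libraries and 121.2, 119.8 and 118.5 FPKM in shSETD2 libraries (log2 fold change 1.22, limma adjusted p = 1.58e-06). The subunits of a ring are used in equal number. Of the other 7 CCT genes, TCP1, CCT3, CCT4, CCT7 and CCT8 fell. Their log2 fold changes were -0.36, -0.45, -0.22, -0.12 and -0.29 in that order, beside a median of -0.29 over all genes. CCT2 rose by 0.10 (adjusted p = 0.0425) and CCT6A had overlapping groups. PFDN1 and PFDN4 of prefoldin rose by 0.87 and 0.46. TBCEL, ARL2 and TBCA, which act on free tubulin or on its cofactors, fell by 0.87, 0.73 and 0.72. After median ratio scaling 8 of the 21 genes were higher and 5 lower, beside 5305 and 5394 of all 14068 genes.

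The autoregulation of tubulin mRNA was represented by 3 genes. TTC5, which recognises nascent tubulin, was at 3.49, 2.97 and 3.46 FPKM in control libraries and 1.38, 1.96 and 1.54 FPKM in shSETD2 libraries (log2 fold change -0.72, limma adjusted p = 5.98e-04). SCAPER, the adaptor that joins TTC5 to the deadenylase, fell by 1.05 (adjusted p = 2.95e-05). CNOT11, the subunit of the CCR4-NOT deadenylase that SCAPER contacts, had overlapping groups (18.6 to 20.6 and 19.5 to 20.8 FPKM, adjusted p = 0.582).

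Of 18 listed genes for enzymes that modify tubulin, 17 were tested, of which 1 rose, 11 fell and 5, SETD2 among them, did neither, with a median of -0.58, beside 26.8% of all genes higher, 51.8% lower and a median of -0.29. After median ratio scaling 3 of the 17 were higher and 8 lower, beside 5305 and 5394 of all 14068 genes. VASH1, which removes the final tyrosine of α-tubulin, was at 10.5, 11.1 and 11.2 FPKM in control libraries and 0.298, 0.437 and 0.409 FPKM in shSETD2 libraries (log2 fold change -3.11, limma adjusted p = 9.18e-08). ATAT1, which acetylates α-tubulin in the lumen of the microtubule, was between 2.70 and 3.83 FPKM in control libraries and at most 0.241 FPKM in shSETD2 libraries (-1.91, adjusted p = 1.01e-05). AGTPBP1, which trims glutamates from tubulin tails, fell from 26.7 ± 0.848 to 8.01 ± 0.242 FPKM (SD, n = 3). HDAC6, which removes the acetyl mark that ATAT1 sets, rose by 0.18 (adjusted p = 0.0134). These are transcript levels, and tubulin modification itself was not measured here.

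**Figure D4:**
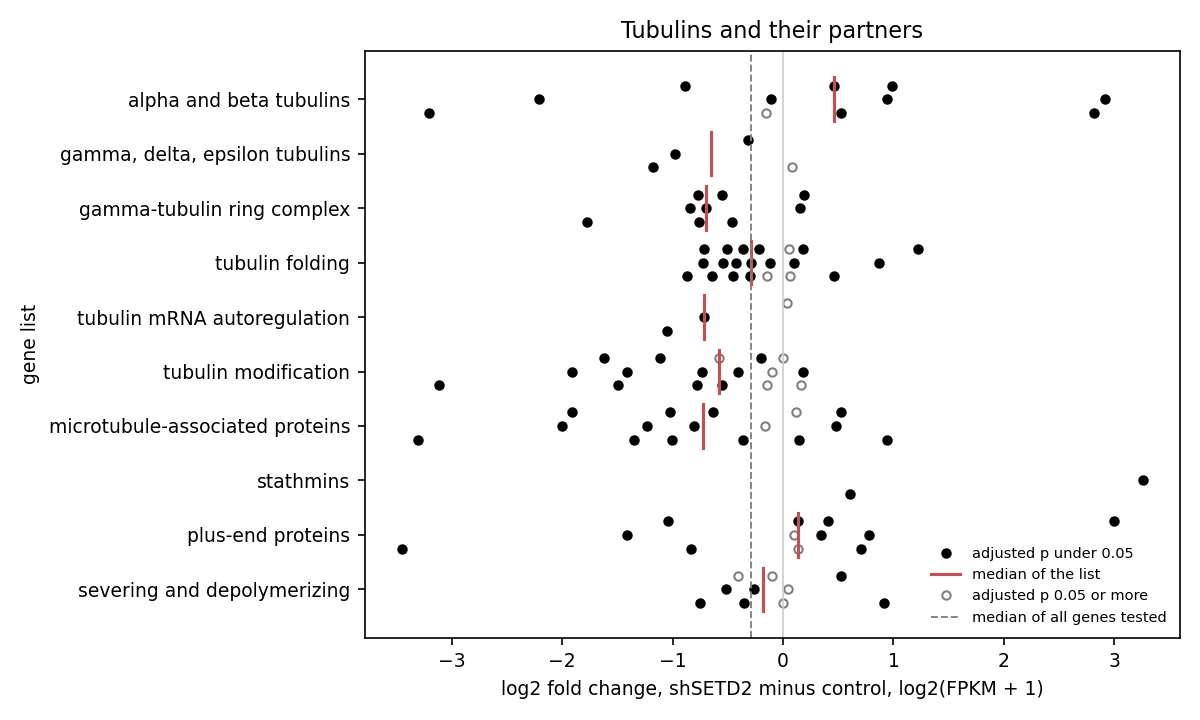
Log2 fold change, shSETD2 minus control on log2(FPKM + 1), of each tested gene in the tubulin lists, with filled points for genes past the threshold, open points for the others, a red bar at the median of each list with more than 2 genes and a dashed line at the median of all genes tested (-0.29). The α- and β-tubulins (top row, 10 members and TUBA4A) spread from -3.21 to 2.91. Of the 17 modifying enzymes, 11 lie among the called falls, beside 51.8% of all genes tested.

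Proteins that bind the microtubule wall gave 4 higher, 10 lower and 2 neither of 16, with a median of -0.72. All genes tested gave 26.8% higher and 51.8% lower, with a median of -0.29. After median ratio scaling 5 of the 16 were higher and 9 lower, beside 5305 and 5394 of all 14068 genes. MAP7D2, a partner of kinesin-1, was between 8.43 and 9.31 FPKM in control libraries and at most 0.0132 FPKM in shSETD2 libraries, EML1 was between 2.77 and 3.28 FPKM and listed at 0 in all shSETD2 libraries, and MAP9 fell from 6.67 to 1.04 FPKM. MAP7D1 rose from 20.1 to 39.5 FPKM, and EML4 and MAP4 rose by 0.53 and 0.48 on the log2 scale. Both listed stathmins, which sequester tubulin dimers, rose. STMN3 was at 7.85, 8.19 and 6.39 FPKM in control libraries and 80.3, 73.3 and 85.9 FPKM in shSETD2 libraries (log2 fold change 3.26, limma adjusted p = 4.91e-07), and STMN1 rose by 0.60 (adjusted p = 0.0124).

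At growing plus ends, 6 of 12 genes rose, 4 fell and 2 did neither, with a median of 0.14. Here and for the severing enzymes below, the shares over all genes tested were 26.8% higher and 51.8% lower, with a median of -0.29. CLIP2, a linker protein of plus ends, was at 1.53, 1.27 and 1.32 FPKM in control libraries and 18.3, 17.3 and 18.3 FPKM in shSETD2 libraries (log2 fold change 3.00, limma adjusted p = 9.39e-08), and SLAIN1, which promotes growth with CKAP5, went from 13.4 to 0.316 FPKM (-3.45, adjusted p = 3.04e-08). MAPRE1, the EB1 protein that marks growing ends, rose from 69.7 ± 0.728 to 114.7 ± 2.12 FPKM (SD, n = 3), whereas its relatives MAPRE2 and MAPRE3 fell by 1.41 and 1.04 on the log2 scale. CLIP1 rose by 0.78. Of 10 severing and depolymerizing enzymes 2 rose and 4 fell, with the mitotic depolymerizer KIF2C up from 23.5 to 45.2 FPKM, KIF18A up by 0.53, and the severing genes SPAST and KATNA1 down by 0.75 and 0.51 on the log2 scale.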

How the data were processed

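Total RNA of 6 libraries, made with a stranded kit, was sequenced. Per the labels and methods, the authors aligned reads to hg19 (GRCh37) with HISAT2, quantified genes with Ballgown and deposited FPKM. Tool versions and strand settings are not given in the sources used here. A second deposited table holds the authors' own comparison and was not used. Low FPKM values shared no common step, so depth and counting error are unknown.

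Genes averaging at least 0.5 FPKM were tested on log2(FPKM + 1) with limma 3.58.1 (intensity trend) in R 4.3.3, with Benjamini-Hochberg adjustment over 14068 genes and a threshold of 0.05. This scale understates changes of low genes. The fit was tested on simulated data. Sums and shares were compared by exact two-sided permutation (scipy 1.17.1). Sequences came from GRCh37 with GENCODE annotation.

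Members and lists were chosen with earlier results of these data known. Named genes were SETD2, the members, other listed tubulins, autoregulation genes, up to 3 with the largest rise and fall per list, neighbours and the 3 genes most like TUBB3 and TUBB2B. Alternatives were pseudocounts of 0.1 and 0.01, other filters, scalings and models, a replicate block and each library left out. Marker lists were called recognised if 50% or more of their genes averaged 1 FPKM or more. Some results covered by these rules are left out.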

Additional observations from a re-analysis of the deposited data

How the results depend on the processing

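TUBA1B, TUBA1C, TUBB2A, TUBB2B, TUBB3, TUBB4A, TUBB4B and TUBB6 kept their direction and stayed past the threshold in all 16 alternatives. TUBA1A turned to 0.19 under median ratio scaling (adjusted p = 0.685) and to 0.34 without shSETD2 library 2 (adjusted p = 0.0184), with -0.42 to 0.34 over the libraries left out in turn. TUBB turned to 0.25 under median ratio scaling and lost its call under quantile normalization (-0.08) and without the intensity trend (-0.11, adjusted p = 0.0655). The summed α difference was 44.9 FPKM under quantile normalization and 157.1 under median ratio scaling, and the β difference 198.5 under the latter. With a mean FPKM of at least 5, 34 list genes were lower rather than 54, fewer genes being tested. The cause of the other changes was not tested. Same-numbered libraries did not deviate together (correlations of -0.024, 0.018 and -0.008), so the numbers pair nothing. With the replicate block, 5 members were higher and 4 lower as before, 20 list genes were higher and 56 lower, and SETD2 passed (-0.58, adjusted p = 0.0157). The smallest exact p of 0.1 says nothing on the stability of sums and shares. FPKM without counts limits what can be said of TUBB3 in control libraries and of TUBA8.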
